A study of Arabidopsis thaliana with 18 samples.

Results

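The 3 LHCB4 genes of Arabidopsis thaliana, LHCB4.1 (AT5G01530), LHCB4.2 (AT3G08940) and LHCB4.3 (AT2G40100), were followed in leaf blades and petioles under 3 light treatments. They were chosen by name: a probe set belonged to the group when the platform's annotation gave 1 of these genes as its single gene. Each gene had 1 such probe set, so the group holds 3 of the 22810 probe sets in the table and 3 of the 13513 with a single gene. No member was lost to a filter. The rule itself used no measured value, but the genes were chosen with earlier results of these data known.

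Wild-type seedlings were 19 days old, raised at 22 °C under constant white light, when they stayed in it for another 2 h (WL), went into darkness for 2 h (D), or went into darkness for 2 h directly after being pulsed with far-red light (FRD). Blades and petioles of rosette leaves 3 and 4 were separated, and biotin-labelled RNA of each was hybridized to Affymetrix Arabidopsis arrays. The 18 arrays form 6 groups of 3, which the series description calls independent biological replicates. The sources used here do not say whether leaves of several plants were pooled, nor how long or strong the pulse was.

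LHCB4 encodes CP29, a single-unit antenna protein that binds chlorophyll a, chlorophyll b and xanthophylls and sits between the photosystem II core and the trimeric light-harvesting complexes. It passes excitation energy inward and takes part in photoprotection. LHCB4.1 and LHCB4.2 encode the common forms of green leaves, while LHCB4.3 encodes a form with a shortened C-terminal end that is known for its accumulation in long-lasting strong light. Genes of this kind are classic targets of light signalling through phytochrome, the photoreceptor that far-red light returns to its inactive form.

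Every value is a ratio to the median of the 3 white-light arrays of the same tissue, so a value of 1 is the white-light level and the absolute level is unknown. Blade cannot be set against petiole in white light, and the tissue labels cannot be checked against marker levels. One LHCB4 gene cannot be ranked above another. Array medians lay between 0.936 and 1.02. In whole organs, fewer cells with a transcript and less transcript per cell cannot be told apart. Precision is limited by having 3 arrays a group.

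No LHCB4 gene changed past the test in either tissue under any treatment. Without white light 12 of 12 member changes were below 0, by 0.08 to 0.59 on the log2 scale, and none was called. The medians of all probe sets in these comparisons lay between -0.03 and 0.0037. The 12 changes are not independent, since D and FRD share the white-light arrays of each tissue and all members share the arrays. Leaving out single arrays turned the sign of LHCB4.2 in blades, to at most 0.096, and of LHCB4.3 in dark petioles. A probe set was called at a limma Benjamini-Hochberg adjusted p under 0.05 over the 22746 probe sets tested. By this rule 11.2% of all probe sets were called for D against WL in blades and 5.6% in petioles, 11.2% and 8.31% for FRD against WL, and 0.651% and 1.09% for FRD against D. At an unadjusted p under 0.05 only LHCB4.3 passed, in FRD against WL in petioles, where 20.7% of all probe sets did. The calls depend on the scaling: with the 75th percentiles of the arrays aligned, 6 of the 12 changes against white light were called, as were 12.8% to 22.1% of all probe sets in these comparisons. That scaling moved the median of all probe sets by -0.28 to -0.33. The white-light median is 1 in all 22810 probe sets, so the scaling does not treat white light and the other treatments alike. Its calls cannot be read as LHCB4 responses.

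LHCB4.1 was measured in blades at ratios of 1.018, 1 and 0.755 in WL, 0.957, 0.841 and 0.657 in D, and 0.787, 0.857 and 0.67 in FRD, each in the order of replicates 1, 2 and 3. The lowest white-light array lay below 2 of the 3 dark arrays and 2 of the 3 far-red arrays, so the groups overlap. The log2 change was -0.18 ± 0.15 for D against WL (standard error of the limma fit, adjusted p = 0.556) and -0.26 ± 0.15 for FRD against WL (limma adjusted p = 0.358).

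In petioles LHCB4.1 stood at 1, 1.045 and 0.98 in WL, at 0.878, 0.887 and 0.861 in D, and at 0.985, 0.85 and 0.845 in FRD. All dark arrays lay below all white-light arrays, and 1 far-red array reached the white-light range. Of all probe sets, 12.3% had dark petiole arrays wholly below white light, so such a gap is common in this comparison. The log2 change was -0.20 ± 0.15 for D against WL (0.868 times the white-light ratio, 95% interval 0.69 to 1.09, limma adjusted p = 0.557). That error comes from a spread pooled over 6 groups. Within the dark petiole arrays the SD of log2 LHCB4.1 was 0.02, and within the dark blade arrays it was 0.28 (n = 3 each).

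LHCB4.2 gave blade ratios of 1.104, 1 and 0.749 in WL, 1.046, 0.962 and 0.702 in D, and 0.968, 0.931 and 0.761 in FRD. The 3 blade groups overlap over most of their range. Its changes there were the smallest against white light among the members, at -0.08 ± 0.2 for D and -0.09 ± 0.2 for FRD (limma adjusted p = 0.883 and 0.853). The 95% interval for D against WL in blades ran from 0.703 to 1.28 times the white-light ratio.

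Petiole ratios of LHCB4.2 were 1, 1.004 and 0.926 in WL, 0.854, 0.895 and 0.715 in D, and 0.975, 0.835 and 0.623 in FRD. Dark arrays again lay below white light without overlap, as did 12.3% of all probe sets, while 1 far-red array lay inside the white-light range. The log2 changes were -0.26 ± 0.2 for D and -0.29 ± 0.2 for FRD against WL (limma adjusted p = 0.575 and 0.478).

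LHCB4.3, the form known from strong light, had blade ratios of 1.002, 1 and 0.844 in WL, 1.022, 0.823 and 0.718 in D, and 0.793, 0.738 and 0.815 in FRD. The far-red blades lay below white light without overlap, as did 13.9% of all probe sets, and the dark blades overlapped with both other groups. The log2 changes were -0.16 ± 0.26 for D and -0.28 ± 0.26 for FRD against WL (limma adjusted p = 0.788 and 0.603).

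In petioles LHCB4.3 was at 1.139, 1 and 0.769 in WL, at 0.993, 1.311 and 0.534 in D, and at 0.712, 0.583 and 0.623 in FRD. The far-red arrays lay below white light without overlap, as did 12.8% of all probe sets. The dark arrays held both the highest and the lowest value of the 9. The change for FRD against WL was -0.59 ± 0.26, or 0.666 times the white-light ratio with a 95% interval of 0.451 to 0.984. It was the largest of the 12 changes against white light, with an unadjusted limma p of 0.0424 and an adjusted p of 0.218. A larger absolute change was measured for 29.3% of all probe sets.

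LHCB4.3 was thus the single member whose FRD arrays lay below WL in both tissues, a property of 6.21% of all probe sets. Averaged over blade and petiole in the same fit, its change was -0.43 ± 0.19 (0.742 times the white-light ratio, with a 95% interval of 0.563 to 0.978). The limma adjusted p was 0.131, and 18.8% of all probe sets were called in that comparison. The adjusted p of LHCB4.3 was 0.0314 without replicate 3 and 0.0305 when only the arrays compared were fitted. Of 24 alternatives only 3 called this change. LHCB4.1 was at -0.22 ± 0.11 and LHCB4.2 at -0.19 ± 0.14 (limma adjusted p = 0.207 and 0.425). When replicate numbers were blocked within each tissue, LHCB4.1 had a limma adjusted p of 0.0467, and only 2 of its 24 alternatives gave a call. For D against WL the averages were -0.19 ± 0.11, -0.17 ± 0.14 and -0.14 ± 0.19 for LHCB4.1, LHCB4.2 and LHCB4.3 (limma adjusted p = 0.278, 0.506 and 0.698), where 17.9% of all probe sets were called. For FRD against D, where 1.62% of all probe sets were called, the average of LHCB4.3 was -0.29 ± 0.19 (limma adjusted p = 0.716) and those of LHCB4.1 and LHCB4.2 were -0.02 and -0.03. The averages were added after the values of the single tissues had been seen.

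**Figure D1:**
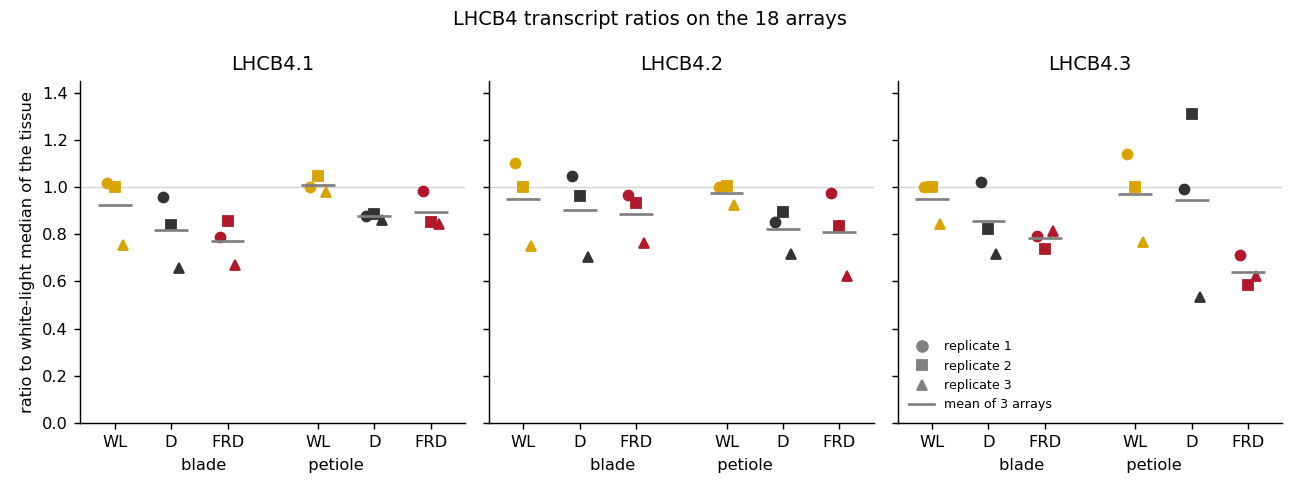
Ratio of each LHCB4 gene to the white-light median of its tissue (vertical axis, linear, from 0) on each of the 18 arrays, by tissue and treatment. Marker shapes give the replicate number and grey lines the mean of 3 arrays. LHCB4.3 in dark petioles spans 0.534 to 1.311, and its far-red petioles lie between 0.583 and 0.712.

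The far-red pulse was compared with darkness alone, which asks for the part of the response due to the pulse. LHCB4.1 differed by -0.08 ± 0.15 in blades and 0.03 ± 0.15 in petioles, and LHCB4.2 by -0.01 ± 0.2 and -0.04 ± 0.2. The groups of both genes overlapped in both tissues. The 95% intervals in petioles were 0.809 to 1.28 times the dark ratio for LHCB4.1 and 0.723 to 1.32 times for LHCB4.2. A change of 2-fold in either direction lies outside them.

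LHCB4.3 differed between FRD and D by -0.11 ± 0.26 in blades and by -0.48 ± 0.26 in petioles (limma adjusted p = 0.998 and 0.747), with overlapping groups in both. The size of the petiole value depended on which dark array was left out. Without petiole D replicate 3, at 0.534, the change was -0.84 (limma adjusted p = 0.0897), and without petiole D replicate 2, at 1.311, it was -0.19. Without all arrays of replicate 2 it was -0.13. For D against WL the change turned to 0.25 without petiole D replicate 3 (adjusted p = 0.632). The SD of log2 LHCB4.3 was 0.66 in dark petioles, against 0.15 in far-red petioles and 0.29 in white-light petioles (n = 3 each).

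**Figure D2:**
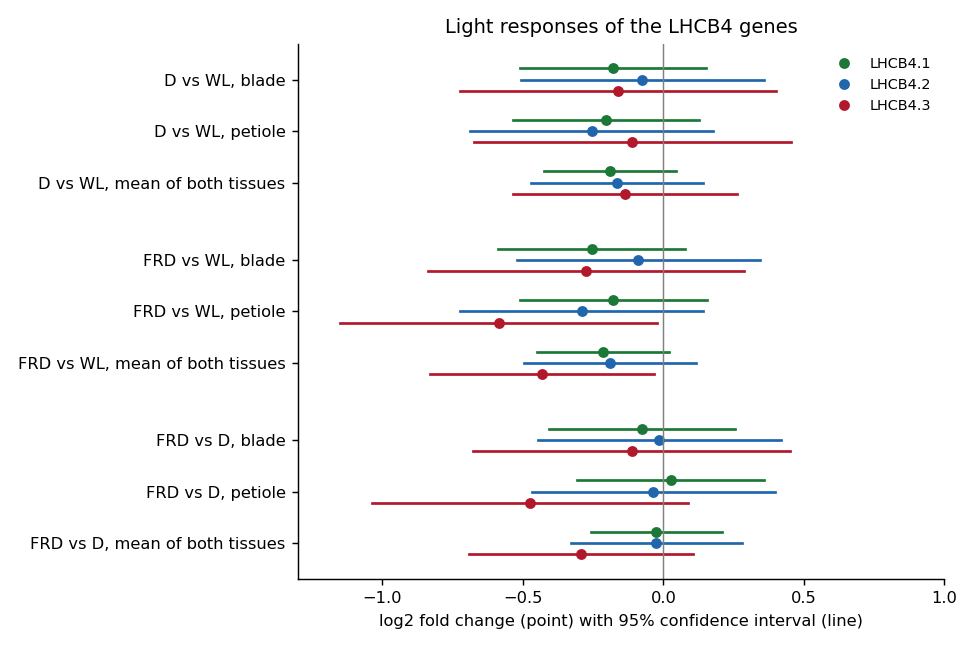
Log2 fold change of each LHCB4 gene (points) with its 95% confidence interval from the limma fit over 18 arrays (lines), for 3 light comparisons in blade, in petiole and as the mean of both. The interval lies wholly below 0 for LHCB4.3 in FRD against WL in petioles and in the mean, and for no other value; neither passed after adjustment.

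Whether blades and petioles responded differently was tested as the petiole change minus the blade change. For LHCB4.3 this difference was -0.36 ± 0.37 for FRD against D, 0.05 ± 0.37 for D against WL and -0.31 ± 0.37 for FRD against WL. The differences of LHCB4.1 lay between -0.02 and 0.10, and those of LHCB4.2 between -0.20 and -0.02. No member was called by limma, the lowest adjusted p was 0.94 and no unadjusted p was under 0.05. Over all probe sets 0%, 0.0044% and 0.0352% were called, in the same order of comparisons, while 1197, 1506 and 1681 had an unadjusted p under 0.05.

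The members were also compared with each other within each array, by an exact two-sided permutation test of treatments within both tissues over 400 arrangements, with 0.005 the smallest p it allows. LHCB4.3 stood lower than LHCB4.2 by a mean log2 difference of -0.24 for FRD against WL, at -0.19 in blades and -0.30 in petioles (exact p = 0.09, and 0.51 after Benjamini-Hochberg adjustment over the 9 comparisons made). Against LHCB4.1 the corresponding value was -0.21, at -0.02 in blades and -0.41 in petioles (exact p = 0.125). LHCB4.2 and LHCB4.1 differed by 0.03 for both D and FRD against WL (exact p = 0.675 and 0.835). None of the 9 passed, so the larger value of LHCB4.3 was not separated from those of its paralogs.

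Between arrays LHCB4.1 and LHCB4.2 varied together. Over the 9 blade arrays Pearson's r of their log2 ratios was 0.916 (exact permutation p = 0.00081) and Spearman's rho was 0.9 (exact p = 0.00203). Over the 9 petiole arrays r was 0.821 (exact p = 0.00349) and rho 0.983 (exact p = 4.96e-05). Over the 6 correlations computed, the Benjamini-Hochberg adjusted p of r was 0.00486 and 0.0105, and that of rho 0.00609 and 0.000298. Without the 2 arrays farthest from the median of LHCB4.1, r was 0.81 in blades and 0.753 in petioles. Over the 6 arrays of replicates 1 and 2 alone, a choice made after seeing the values, r was 0.778 in blades (exact p = 0.0708, adjusted 0.11) and 0.977 in petioles (exact p = 0.00556, adjusted 0.0333). The blade relation thus did not pass without replicate 3. The arrays hold 3 treatments, and values of 1 array share its scaling. The permutations moved arrays freely across treatments and replicate numbers. Their p-values, and those for LHCB4.3 below, thus do not set such shared shifts apart.

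LHCB4.3 had r = 0.796 with LHCB4.1 in blades (exact p = 0.0131, adjusted 0.0262) and r = 0.445 in petioles (exact p = 0.225), with rho = 0.7 and 0.65 (exact p = 0.0433 and 0.0666). With LHCB4.2 it had r = 0.672 and 0.618 (exact p = 0.043 and 0.0757), with rho = 0.733 and 0.667 (exact p = 0.0311 and 0.0589). After adjustment only r with LHCB4.1 in blades passed. Without the 2 farthest arrays r was 0.791 and 0.191 with LHCB4.1, and 0.616 and 0.303 with LHCB4.2, blades first. Without replicate 3 the blade r with LHCB4.1 was 0.878 (exact p = 0.0736). Whether these correlations differ from that of LHCB4.1 with LHCB4.2 was not tested.

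Replicate 3 was the lowest of its group in all 6 groups for both LHCB4.1 and LHCB4.2, which held for 4.47% of all probe sets. In blades alone replicate 3 was lowest in all 3 groups for 12.3% of probe sets, and in petioles for 13.1%. The corresponding shares were 3.4% and 4.95% for replicate 1 and 3.42% and 3.53% for replicate 2. In white-light blades replicate 3 stood at 0.755 for LHCB4.1 and 0.749 for LHCB4.2 against at least 1 for both other arrays, a gap wider than any difference between the mean ratios of the treatments in blades.

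**Figure D3:**
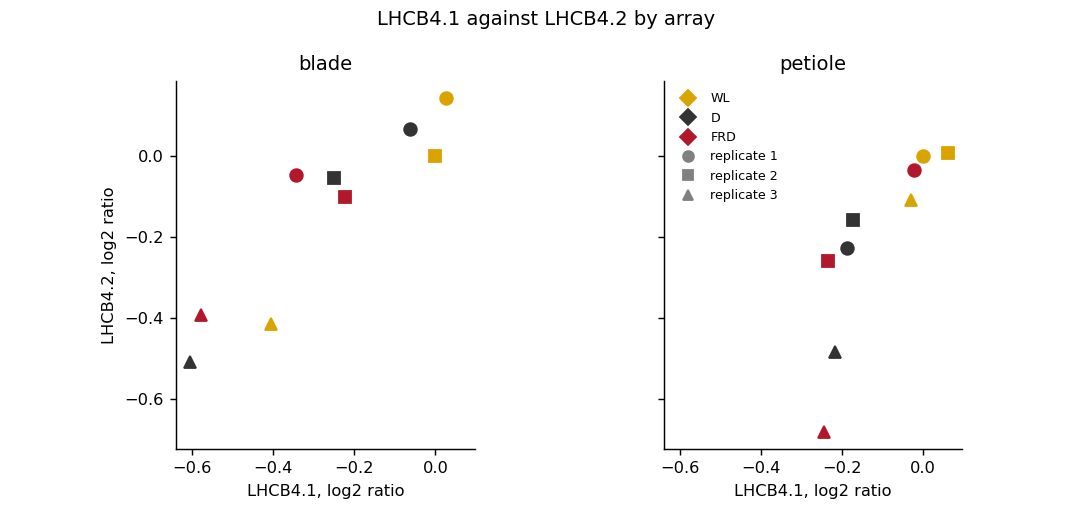
Log2 ratio of LHCB4.1 (horizontal) against LHCB4.2 (vertical) on the 9 blade arrays and the 9 petiole arrays, with colours for the treatment and shapes for the replicate number. The 3 blade arrays of replicate 3 lie together at the lower left, whatever their treatment.

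Among the other probe sets with a single gene, those most like each member over the 18 log2 ratios were ranked as a description, without a test. For LHCB4.1 they were atpE (r = 0.926), a plastid gene for a subunit of the chloroplast ATP synthase, GAPC2 (r = 0.919), a cytosolic glyceraldehyde-3-phosphate dehydrogenase of glycolysis, and AT5G57785 (r = 0.914). For LHCB4.2 they were AT3G52960 (r = 0.907), AT1G21500 (r = 0.905) and PSBY (r = 0.897), a small photosystem II subunit. For LHCB4.3 they were AT1G11860 (r = 0.846), AT3G24190 (r = 0.834) and WSD1 (r = 0.832), an enzyme of wax ester synthesis. LHCB4.2 ranked 243rd for likeness to LHCB4.1 among 13512 probe sets, at r = 0.692, and LHCB4.3 ranked 742nd for likeness to LHCB4.2, at r = 0.593. The remaining pair was the least alike, as LHCB4.3 ranked 2696th for likeness to LHCB4.1, at r = 0.375. These 18 points mix tissues, treatments and the replicate pattern above.

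Other genes of the photosynthetic apparatus were read from lists of 88 loci, of which 9 had a probe set with a single gene. No other light-harvesting gene was among them. All 9 were below 0 for D and for FRD against WL in both tissues, and none was called in any single-tissue comparison by limma. At an unadjusted p under 0.05 there was 1 of 9 in far-red blades, 2 of 9 in far-red petioles and 0 in the other single-tissue comparisons. Of all probe sets 23.9% and 20.7% passed it in far-red blades and petioles, and 7.57% to 24% in the others. Their median change was -0.14 in dark blades and -0.19 in dark petioles, and -0.17 and -0.26 after the pulse and darkness. The medians of all probe sets in these 4 comparisons lay between -0.03 and 0.0037.

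The photosystem subunit genes of these lists had changes of the same order as LHCB4.1 and LHCB4.2. For FRD against WL in petioles PSBW stood at -0.15 and PSBY at -0.27, and the photosystem I genes PSAE-1 and PSAN at -0.16 and -0.11. PORB, which reduces protochlorophyllide in light, stood at -0.49, CHLM, a methyltransferase of chlorophyll synthesis, at -0.26, and RCA, the activase of Rubisco, near 0 at -0.0036. HYH, a transcription factor of light signalling related to HY5, stood at -0.94 ± 0.29 (limma adjusted p = 0.0637), and PRK, a Calvin cycle kinase, at -0.67 ± 0.23 (adjusted p = 0.0972). HYH and PRK were called in the mean of both tissues, at -0.72 (adjusted p = 0.0245) and -0.58 (adjusted p = 0.0213). They were the 2 of 9 called there, against 9.03% of all probe sets called lower. Of 24 alternatives each, 15 kept the call of HYH and 16 that of PRK, and none turned the sign.

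A further 14 nuclear genes for photosynthesis and chlorophyll synthesis were taken from the annotation's symbols after it had been read. Earlier results of these data were then known, so their counts beside the shares of all probe sets are a description. For FRD against WL, 12 of 14 were below 0 in each tissue, with medians of -0.21 in blades and -0.49 in petioles. PIFI, an ancillary factor of the chloroplast NAD(P)H dehydrogenase, was the 1 gene called in a single tissue. It fell by 0.74 ± 0.13 in blades and by 0.67 ± 0.13 in petioles (limma adjusted p = 0.00229 and 0.00523), and by 0.49 ± 0.13 in dark blades (adjusted p = 0.0248). The shares of all probe sets called lower there were 4.74%, 3.87% and 4.47%. The 3 calls held under 14, 13 and 9 of 18 alternatives.

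In the mean of both tissues 5 of the 14 were called lower for FRD against WL, again against 9.03% of all probe sets. CHLI2, a subunit of magnesium chelatase, fell by 0.52, HEME1 and HEME2, uroporphyrinogen decarboxylases, by 0.52 and 0.58, NdhN, a subunit of the chloroplast NAD(P)H dehydrogenase, by 0.66 and PIFI by 0.70 (limma adjusted p from 0.000119 to 0.0448). The light-harvesting-like genes LIL3:1 and LIL3:2 were not called, at -0.48 and -0.19. HEMA2 and HEMA3, isoforms of glutamyl-tRNA reductase, stood above 0 at 0.45 and 0.78 and were not called. For D against WL in the mean 3 of the 14 were called lower, where 17.9% of all probe sets were called in either direction. Of those calls over all probe sets 56.2% were higher, so the share called lower was smaller than 17.9%. CHLI2 fell by 0.56, HEME1 by 0.39 and PIFI by 0.38 (limma adjusted p = 0.024, 0.0473 and 0.00958). Alternatives were not run for these calls. For FRD against D in the mean 0 of the 14 were called, against 1.62% of all probe sets. For FRD against WL the call of PIFI held under 23 of 24 alternatives and that of HEME1 under 21, while those of NdhN, CHLI2 and HEME2 held under 13, 12 and 10. None of the calls on listed genes for which alternatives were run held under quantile normalization (limma adjusted p from 0.0974 to 0.841). That setting called few probe sets of any kind. The shares were 0.703% (D, blades), 0.822% (FRD, blades), 0.805% (FRD, petioles) and 3.64% (FRD, mean of both tissues). In the main fit they were 11.2%, 11.2%, 8.31% and 18.8%.

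The 15 plastid psb genes, most of which encode photosystem II subunits, showed no limma call. In any comparison 0 of 15 had an unadjusted p under 0.05, against 18.7% to 24% of all probe sets in the single-tissue comparisons with WL. Their medians were 0.06 in dark blades, 0.06 in dark petioles, -0.02 in far-red blades and 0.11 in far-red petioles against WL. Some of these genes varied widely between replicates, which limits what their tests can show. In petioles psbB stood at 3.914, 3.9 and 4.235 in replicate 3 (WL, D and FRD), against 0.946 to 1.589 in replicates 1 and 2. Its standard error was 0.82, against 0.15 to 0.26 for LHCB4 within a tissue. Others varied less, such as psbK, at 0.841 to 1.131 over all petiole arrays. The difference between the plastid genes and LHCB4 was not tested.

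**Figure D4:**
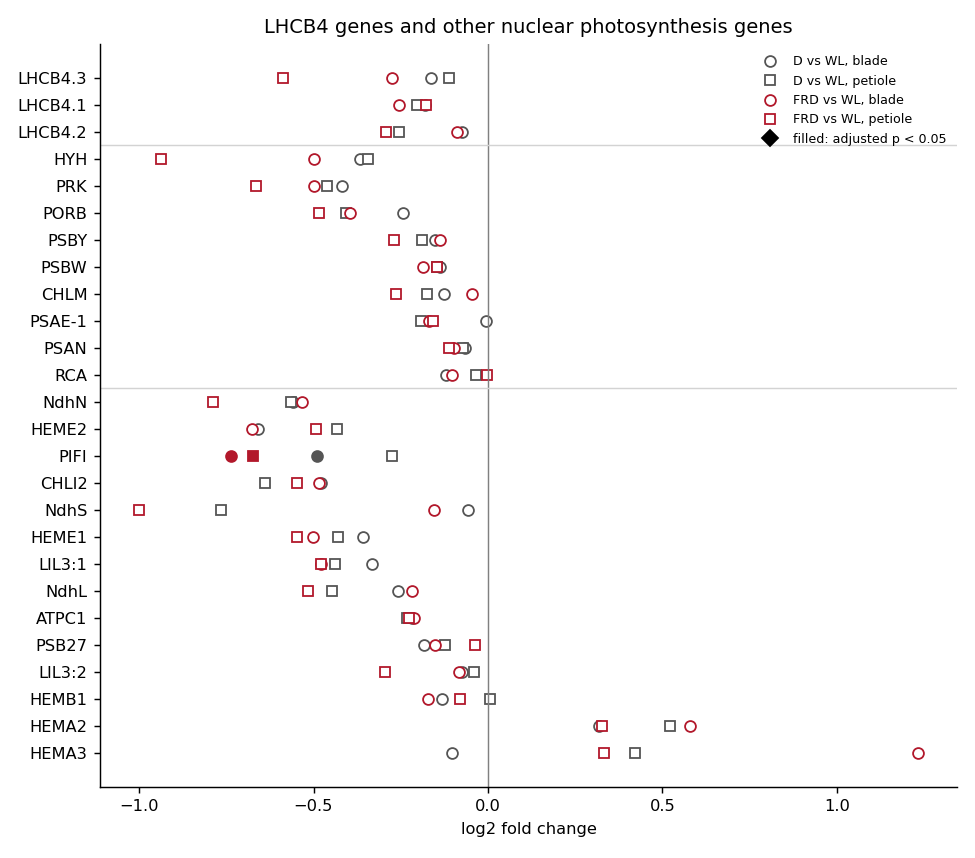
Log2 fold changes of the 3 LHCB4 genes (top), the 9 listed genes with a probe set (middle) and the 14 further nuclear genes (bottom) for D and FRD against WL, circles for blades and squares for petioles. Filled markers passed the limma test, which only PIFI did; the LHCB4 values lie between -0.59 and -0.08.

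Array control probe sets for widely expressed transcripts gave changes of similar size. For FRD against WL the 6 actin, 5 GAPDH and 5 ubiquitin control probe sets had medians of -0.20, -0.20 and -0.24 in blades and of -0.09, -0.23 and -0.10 in petioles. For D against WL the medians were -0.13, -0.20 and -0.15 in blades and -0.15, -0.11 and -0.0021 in petioles. All of them were below 0 for FRD against WL in blades. Ribosomal control probe sets moved in opposite directions except for FRD in petioles, where both were above 0. The one for the large ribosomal RNA differed from WL by 1.05 and 0.10 for D in blades and petioles and by 0.42 and 0.20 for FRD, while the one for 5S ribosomal RNA differed by -0.998 and -2.05 for D and by -0.84 and 0.14 for FRD. The SD of the log2 ratio for 5S ribosomal RNA was 2.19 in dark blades and 1.84 in dark petioles (n = 3 each). None of these control differences was tested. The part of these shifts in the LHCB4 values was not tested.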

How the data were processed

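The authors' deposited values are linear ratios: the median of the 3 white-light arrays of each tissue is 1 in all 22810 probe sets, a reading from the values themselves. The sources used here do not name the steps before that. The 3 missing values stayed missing, and 64 control probe sets were not tested. limma 3.58.1 (R 4.3.3) was run on log2 ratios with 1 mean per group over 18 arrays, 12 residual degrees of freedom and Benjamini-Hochberg adjustment over 22746 probe sets, and was tested on simulated data. Named genes were the members, the 3 probe sets most like each and up to 4 called genes per list; the uncalled list genes and all added genes were named after their values were seen. Members, lists and tests were chosen with earlier results of these data known. Averages over tissues, a block within tissues and correlations without replicate 3 were added after seeing the data. Alternatives were quantile normalization, aligned 75th percentiles, a floor or a pseudocount of 0.553 (the 10th percentile of the ratios), a variance trend, array weights, the compared arrays alone, replicate blocks and left-out arrays. Probe sequences were not used here, so cross-hybridization between paralogs was not checked.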

Additional observations from a re-analysis of the deposited data

How the results depend on the processing

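No LHCB4 value was called as reported; of 756 recomputed values, 685 kept their sign and stayed uncalled, 57 turned in sign, 14 became called and 0 lost a call. The causes were not tested. White-light medians are 1 in all 22810 probe sets, so aligned percentiles and quantile normalization do not treat white light and the other treatments alike. With 75th percentiles aligned, which moved the median of all probe sets against white light by -0.28 to -0.33, LHCB4.1 was called at -0.51 (D) and -0.56 (FRD) in blades and -0.48 and -0.49 in petioles, and LHCB4.2 and LHCB4.3 at -0.60 and -0.90 in far-red petioles. The averages over tissues were then called at -0.50 (LHCB4.1) and -0.47 (LHCB4.2) for D and -0.53, -0.50 and -0.74 for FRD, members in order. In these averages 34.2% (D) and 34.9% (FRD) of all probe sets were called. Relative to that median, LHCB4.1 lay at -0.16 and -0.20 for D in blades and petioles. The share of calls that were higher fell from 60.0% to 13.5% (D, blades), 61.6% to 13.3% (D, petioles), 57.5% to 14.7% (FRD, blades) and 53.4% to 12.7% (FRD, petioles); by quantile normalization it was 70%, 72.6%, 72.2% and 57.9%. Signs turned under aligned percentiles to 0.011 (LHCB4.2, FRD against D, blades), -0.0066 (LHCB4.1, petioles) and 0.027 (LHCB4.1, D, petiole minus blade), under quantile normalization to -0.061 (LHCB4.3, D, petiole minus blade) and -0.033 (LHCB4.1, FRD against WL), under array weights to 0.042 (LHCB4.2, FRD against D, petiole minus blade), and with the pseudocount to 0.000663 (LHCB4.2 minus LHCB4.1, FRD against D). The averaged FRD change of LHCB4.3 was called at -0.43 with the compared arrays alone. Same-numbered arrays of a tissue had correlations of 0.0036 to 0.149 (median 0.038), against -0.107 to 0.084 (median -0.046) for different numbers. In each tissue 6 of 9 arrays were most like their own number. The highest same-number values were those of replicate 3, at 0.111 to 0.149. Same-numbered arrays of replicates 1 and 2 reached at most 0.069, while blade WL replicate 1 and blade D replicate 2 had 0.084. Shared variation by number thus stood out for replicate 3 alone. The labels state no pairing and the main fit took none. With the replicate block LHCB4.3 in far-red petioles stayed at -0.59 (limma adjusted p = 0.12) and no member call changed. The unadjusted limma p of LHCB4.2 in petioles fell from 0.225 to 0.0352 (D) and from 0.17 to 0.0192 (FRD). That of LHCB4.1, averaged FRD, fell from 0.0676 to 0.0233. A block within each tissue gave a call to LHCB4.1, averaged FRD, at -0.22 (limma adjusted p = 0.0467). Leaving out arrays turned the sign or changed a call in the results with the ranges given next. For FRD against D they were -0.23 to 0.046, -0.19 to 0.10 and -0.26 to 0.023 in blades (members in order), -0.047 to 0.069 and -0.18 to 0.14 in petioles (LHCB4.1, LHCB4.2), -0.10 to 0.036 and -0.11 to 0.064 averaged, and -0.072 to 0.25 and -0.18 to 0.16 for petiole minus blade. For D against WL they were -0.24 to 0.096 (LHCB4.2, blades), -0.39 to 0.25 (LHCB4.3, petioles), -0.28 to 0.046 (LHCB4.3, averaged), and -0.17 to 0.12 and -0.26 to 0.42 for petiole minus blade (LHCB4.1, LHCB4.3). For FRD against WL they were -0.25 to 0.027 (LHCB4.2, blades), -0.058 to 0.22 (LHCB4.1, petiole minus blade) and -0.56 to -0.34 (LHCB4.3, averaged). For LHCB4.2 minus LHCB4.1 they were -0.027 to 0.059 (D), -0.0028 to 0.080 (FRD) and -0.049 to 0.028 (FRD against D), and for D against WL -0.066 to 0.18 (LHCB4.3 minus LHCB4.1) and -0.039 to 0.12 (LHCB4.3 minus LHCB4.2). Further uncalled values kept their sign but moved by over 1.5 times: for D against WL -0.32 to -0.030 (LHCB4.1, blades), -0.30 to -0.044 (LHCB4.3, blades) and -0.32 to -0.16 (LHCB4.2, petioles), for FRD against WL -0.39 to -0.16 (LHCB4.1, blades), -0.26 to -0.12 (LHCB4.1, petioles) and -0.44 to -0.11 (LHCB4.2, petioles), and for FRD against D -0.84 to -0.13 (LHCB4.3, petioles) and -0.54 to -0.11 (LHCB4.3, averaged). So did the averages of LHCB4.1 (-0.26 to -0.12) and LHCB4.2 (-0.25 to -0.080) for D and of LHCB4.2 for FRD (-0.27 to -0.10), and petiole minus blade for LHCB4.2 (-0.35 to -0.017 for D, -0.38 to -0.0048 for FRD) and LHCB4.3 (-0.73 to -0.037 for FRD against D, -0.47 to -0.19 for FRD). Counts of called probe sets ranged from 160 to 5024 around 2542 (D, blades), 10 to 2907 around 1274 (D, petioles), 187 to 4643 around 2537 (FRD, blades), 159 to 4385 around 1891 (FRD, petioles), 10 to 205 around 148 and 9 to 351 around 249 (FRD against D, blades and petioles). Each member has 1 probe set, so no choice between probe sets was run.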
